A study of Homo sapiens with 2 samples.

Results

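The DNA replication genes described here are 42 protein-coding genes whose products license origins, build and drive the replication fork, synthesize DNA or supply nucleotides and histones. They were chosen by gene symbol, with earlier results of these data known. All 42 were found among the 57485 genes listed in both expression tables. Each of them also reached 1 FPKM (fragments counted per kilobase of effective transcript length, scaled to the library total) in at least 1 library, as did 14859 genes in all, and the lowest of them by this criterion, PRIM2, had 10.84 FPKM in its higher library. By role, 11 members belonged to origin licensing, 17 to the replisome, 9 to the DNA polymerases, and 5 to nucleotide and histone supply. Of the 42, 40 carried the GO term DNA replication in the tables, and the exceptions were TYMS and TK1. The members lay on 19 chromosomes.

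The study asked which mRNAs differ when SRD5A1, a steroid 5α-reductase, is knocked down in ARP1, a human multiple myeloma cell line. Poly(A) RNA was sequenced from ARP1-SRD5A1-KD cells, which carry a lentiviral shRNA expressed on addition of doxycycline (Dox), with 1 untreated library and 1 library from cells treated with Dox. Both libraries carried the hairpin, no Dox-treated library without it was analysed here, and the sources used here do not give the Dox dose or duration for these libraries. The genotype label of the Dox-treated library names SRD5A2, whereas its title and the series design name SRD5A1.

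SRD5A1 itself had 13.04 FPKM in the untreated and 25.88 FPKM in the Dox-treated library by label, a log2 ratio of 0.98. The RNA of the targeted gene was therefore higher where a knockdown is labelled, and every direction given below rests on the labels of the libraries. With 1 library per condition no difference has a replicate check, so no p-value is given, and the words higher and lower compare these 2 libraries and not the conditions. The libraries held 45918570 and 48728927 expected counts. All 9 plasma cell markers examined (SDC1, TNFRSF17, CD38, IRF4, PRDM1, XBP1, SLAMF7, MZB1 and JCHAIN) had at least 1 FPKM, with summed levels of 7842 FPKM without and 5820 FPKM with Dox. Most of that sum was JCHAIN, at 5444 and 3515 FPKM, and TNFRSF17, IRF4, PRDM1 and SLAMF7 were higher with Dox, at log2 ratios of 1.06, 0.33, 0.16 and 1.40. The 3 T cell, 3 myeloid and 3 fibroblast markers summed to at most 0.96 FPKM per list in either library, with CD3D, CD2 and DCN listed at 0, and the 3 epithelial markers summed to 8.71 and 4.04 FPKM. The part of marker differences in the results below was not tested.

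Before S phase, the origin recognition complex (ORC), CDC6 and CDT1 load the MCM2-7 helicase onto origins, and geminin (GMNN) blocks reloading once replication has begun. CDC45 and GINS then join MCM2-7 to form the active helicase, and polymerase alpha-primase lays down primers. Polymerases delta and epsilon extend these primers with the PCNA clamp, and FEN1 and DNA ligase I join the lagging-strand pieces. Ribonucleotide reductase, thymidylate synthase and thymidine kinase provide the deoxynucleotides, and many of these genes are transcribed at the passage from G1 to S phase under E2F control. In RNA from a bulk culture, fewer cells in S phase and less RNA per cell cannot be told apart.

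Because many replication genes are E2F targets, the promoters of the members were searched for 4 E2F letter strings, TTTCCCGC, TTTCGCGC, TTTGCCGC and TTTGGCGC, on both strands. Matches may overlap, since the last bases of one string can be the first bases of another on the opposite strand. The promoters were RefSeq sequences of 250 bases before to 50 bases after each gene start (GRCh38.p14), and 36 of the 42 members had one. MCM4, MCM5, GINS4, POLD3, RPA2 and RPA3 had no entry. In the lines that follow, 30 bases around a match are shown for 6 members, the 3 with the lowest and the 3 with the highest ratio among the 12 members whose whole window lay before the RefSeq start. They are printed 5′ to 3′ on the strand of the gene, with the matched letters in capitals.
TYMS (chr18:657603-657632, forward strand): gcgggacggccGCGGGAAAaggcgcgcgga
GINS2 (chr16:85688967-85688996, reverse strand): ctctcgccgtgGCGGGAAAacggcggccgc
RFC3 (chr13:33818083-33818112, forward strand): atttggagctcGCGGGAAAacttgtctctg
CDT1 (chr16:88803743-88803772, forward strand): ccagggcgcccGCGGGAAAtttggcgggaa
POLA1 (chrX:24693770-24693799, forward strand): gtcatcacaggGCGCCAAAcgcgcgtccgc
MCM6 (chr2:135876515-135876544, reverse strand): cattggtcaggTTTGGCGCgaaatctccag

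The same letters, GCGGGAAA on the gene's strand, thus stood before the RefSeq start of TYMS, at a log2 ratio of -0.94, and of CDT1, at 0.09. MCM6 had 4 matches in its promoter, and they formed 2 overlapping pairs. An E2F match was found for 18 of the 36 members (50.0%), against 3.32% of the 35116 promoters in the table and 7.76% of 6147 protein-coding genes with a promoter and at least 10 FPKM in 1 library. The median log2 ratio was -0.32 for the 18 members with a match and -0.15 for the 18 without. Of those with a match 15 were below 0, and of those without one 11 were. POLD1, RRM2 and MCM10, which are among the 4 members with the lowest ratios, had no match in this window. CCAAT was found on either strand in 22 of the 36 members (61.1%), compared with 34.6% of all promoters and 45.0% of the highly expressed genes. The cell cycle letters TTTGAA were found in 1 member, RRM1 (2.78%), against 15.2% of all promoters and 13.4% of the highly expressed genes. Members and highly expressed genes were counted per gene, by a match in any promoter of the gene. The shares of all promoters were counted per promoter. A match is a description of the sequence only, and its place depends on the annotation. The windows of POLA1 and MCM6 lie outside the gene also as GENCODE release 29 draws it, whereas those of GINS2, RFC3 and CDT1 lie inside the GENCODE gene and that of TYMS almost wholly so.

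Levels differed widely among the members. RRM2 had the highest level in both libraries, and the highest level was 52.1 times the lowest without Dox and 27.9 times with Dox. The order of the levels was similar in both libraries, with a Spearman correlation of 0.92 over the 42 genes, which share the libraries and are not independent. Together the members took 0.660% of all expected counts without Dox and 0.497% with Dox. Their summed FPKM was 3506 without and 2649 with Dox, a loss of 24.4%, of which RRM2 alone made up 36.7%. Without RRM2 the loss of the other 41 was 18.4%.

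**Figure D1:**
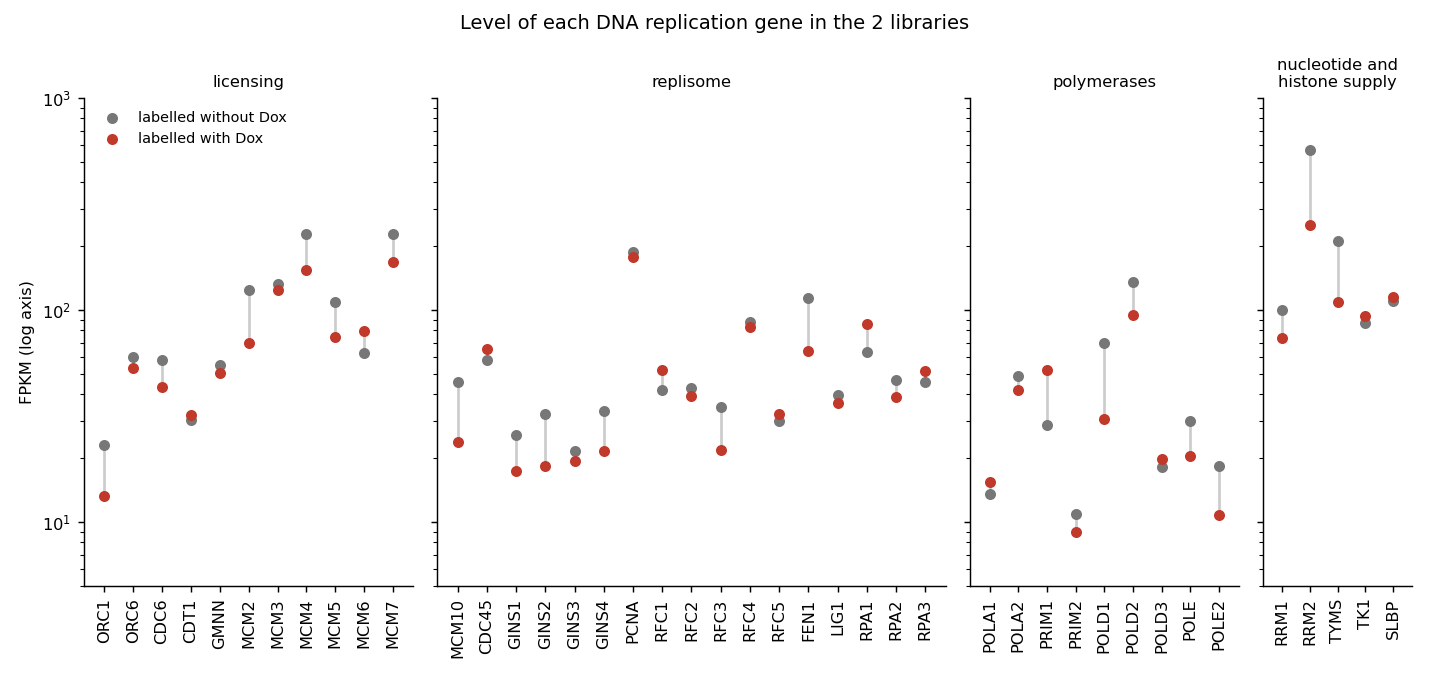
FPKM of the 42 DNA replication genes by role (log axis), with grey points for the library labelled without Dox and red points for the library labelled with Dox, 1 library each. RRM2 goes from 565.09 to 250.42 FPKM, POLD1 from 69.86 to 30.54, and PRIM1 the other way, from 28.60 to 52.15.

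Each ratio was formed on the log2 scale from the FPKM with and without Dox after adding 0.1 to both, so a negative value is a lower level in the library labelled with Dox. The median log2 ratio of the members was -0.24, whereas that of all 14859 genes tested was 0.15, a difference of -0.39. Below 0 were 30 of the 42 members (71.4%), compared with 41.5% of all genes tested, and 35 members lay below the median of all genes. For protein-coding genes with at least 10 FPKM in 1 library, a level that every member reached, the median log2 ratio was 0.02 (n = 7706). Of these genes 48.8% were below 0 and 58.6% below the median of all genes. The members were thus lower than most genes, although few were far lower. More than 2-fold lower were 2 members, POLD1 and RRM2 (4.76%), against 6.41% of all genes tested and 5.52% of the protein-coding genes with at least 10 FPKM. No member was more than 2-fold higher, against 17.0% of all genes and 8.62% of the protein-coding genes with at least 10 FPKM. At 1.5-fold, a threshold added after the values were seen, 11 members were lower (26.2%), against 15.4% of all genes, and 1 was higher, PRIM1 (2.38%), against 29.3%. In the protein-coding genes with at least 10 FPKM these shares were 16.3% lower and 19.2% higher.

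The number past 2-fold depended on the scaling. FPKM divided by the TMM factors of edgeR, and counts divided by the size factors of DESeq2 with no length term, shifted the median of all genes by -0.20 on the log2 scale, to -0.05 in both cases, and gave 8 and 10 members more than 2-fold lower, respectively, against 10.3% and 10.1% of all genes. The 8 were POLD1, RRM2, TYMS, MCM10, MCM2, FEN1, GINS2 and ORC1, and the scaled counts added MCM4 and POLE2. Relative to the median of all genes, the members differed much less between scalings, at -0.38 to -0.39 for FPKM, TPM, counts scaled to the library total and the values divided by either set of factors. Subtracting that median cancels any factor common to a whole library, so FPKM, TPM and FPKM over TMM factors had to give near-equal values. The same holds between counts scaled to the library total and counts over size factors. Only the agreement between FPKM-based and count-based values was not fixed in this way. No scaling gave a member more than 2-fold higher.

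**Figure D2:**
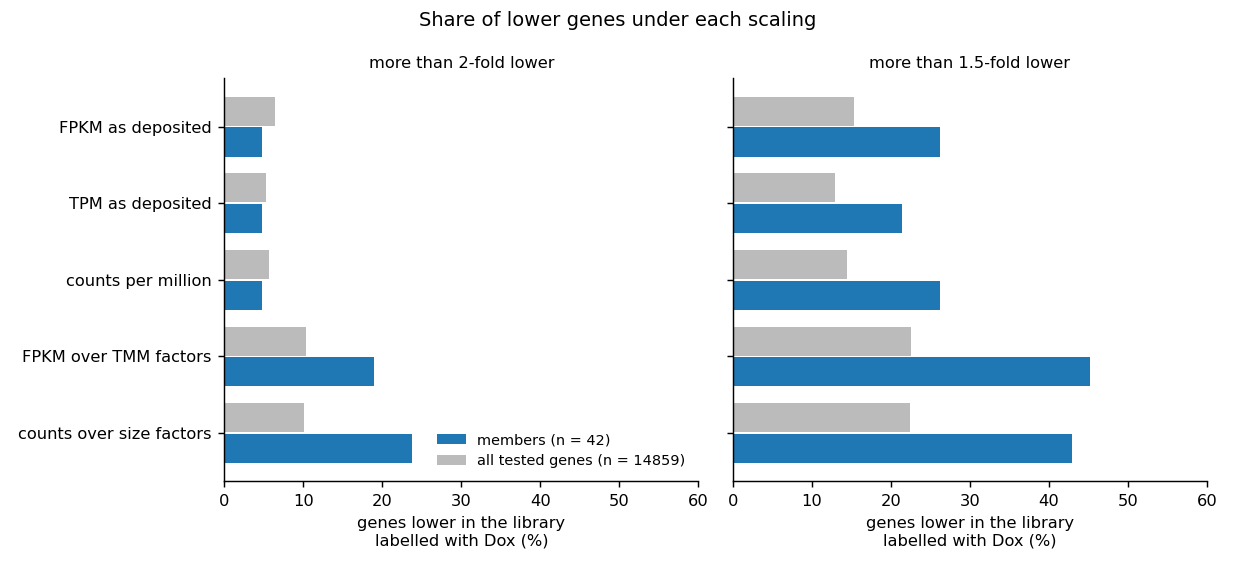
Percent of genes more than 2-fold (left) and more than 1.5-fold (right) lower in the library labelled with Dox under 5 scalings, for the 42 members (blue) and the 14859 genes tested (grey). At 2-fold the members are below the background with FPKM as deposited (4.76% against 6.41%) and above it with TMM factors (19.0% against 10.3%), while at 1.5-fold they are above it under each scaling.

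Counting error was small against the larger ratios, but not against the ratios nearest 0, as for RFC4, whose interval was -0.14 to -0.0052. Counts per member and library ran from 487 (POLE2 with Dox) to 44390 (RRM2 without Dox). Exact 95% Clopper-Pearson intervals, which cover counting error only and take the gene lengths and library totals as given, lay wholly below 0 for 30 members and wholly above 0 for 12. They lay wholly below the median of all genes for 31 members, wholly above it for 4 (PRIM1, RPA1, MCM6 and RFC1) and included it for 7. Over 8 settings of pseudocount, filter and scaling, 27 members stayed below 0 and the same 4 stayed above 0, while the sign of 11 depended on the setting (CDT1, MCM3, CDC45, PCNA, RFC4, RFC5, POLA1, POLD3, RPA3, TK1 and SLBP). The matching shares over all genes tested were not computed for the intervals or the settings, so these counts do not set the members apart from other genes.

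**Figure D3:**
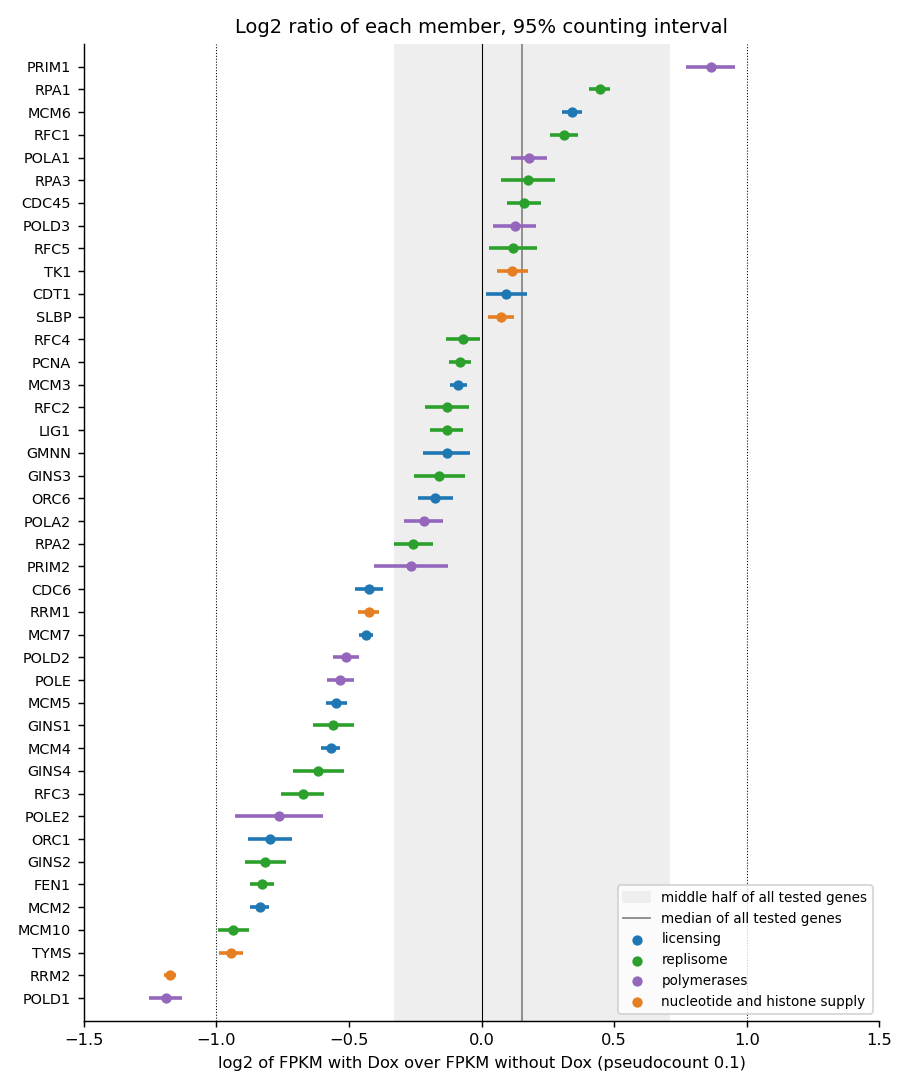
Log2 ratio of FPKM (with over without Dox) of each member, coloured by role, with its 95% counting interval; the grey band spans the middle 50% of all genes tested and the grey line is their median, 0.15. POLD1 (-1.19) and RRM2 (-1.17) lie past the dotted 2-fold line, PRIM1 (0.86) is the highest, and 35 of the 42 points lie left of the grey line.

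Origin licensing genes were mostly lower in the library labelled with Dox, with a median log2 ratio of -0.43 over 11 genes, 9 of them below 0. ORC1, the largest subunit of the origin recognition complex, went from 23.04 to 13.22 FPKM, a log2 ratio of -0.80 (counting interval -0.88 to -0.71). ORC6, its smallest subunit, was at 59.98 and 53.14 FPKM, a log2 ratio of -0.17. The other 4 ORC subunits, ORC2 to ORC5, were not among the members, and all 6 together summed to 152.5 FPKM without and 152.7 FPKM with Dox. ORC1 took 15.1% of that sum without and 8.66% with Dox, and it passed from the 3rd highest subunit to the lowest. The log2 ratio of the sum was 0.0012, or -0.21 with TMM factors. The listed length of ORC4 was 41.8% longer with Dox. Its log2 ratio was 0.13 on FPKM and 0.67 on its share of counts, so the sum depends on that length.

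CDC6, the ATPase that recruits MCM2-7 together with CDT1, was at 58.10 FPKM without and 43.24 FPKM with Dox, a log2 ratio of -0.43. CDT1 itself was at 30.09 and 32.10 FPKM, a log2 ratio of 0.09. Its inhibitor geminin (GMNN) was at 55.10 and 50.27 FPKM, a log2 ratio of -0.13. On FPKM as deposited the loader and its inhibitor were thus close to level. The FPKM of CDT1 was 0.546 times that of GMNN without Dox and 0.639 times with Dox. The listed length of GMNN was 7.1% shorter with Dox. On the share of counts the log2 ratio was -0.28 for GMNN and 0.15 for CDT1.

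Of the 6 subunits of the MCM2-7 helicase, 5 were lower with Dox and MCM6 was higher. MCM2 went from 124.43 to 69.64 FPKM, a log2 ratio of -0.84 (counting interval -0.87 to -0.80). MCM5 went from 108.45 to 74.15 FPKM (-0.55). MCM4 went from 228.47 to 153.97 FPKM, a log2 ratio of -0.57, with a listed length more than 10% shorter with Dox and a log2 ratio of -0.84 on its share of counts. MCM7 went from 227.77 to 168.19 FPKM, a log2 ratio of -0.44, and MCM3 was at 131.91 and 124.08 FPKM (-0.09). MCM6, which lies on chromosome 2 from 135839626 to 135876426 (GRCh38), went the other way, from 62.86 to 79.70 FPKM, a log2 ratio of 0.34 (0.30 to 0.38). These subunits act as 1 ring in equal numbers, yet their mRNAs were unequal in both libraries, and less so with Dox. The highest was 3.64 times the lowest without Dox and 2.42 times with Dox. MCM6 passed from the lowest of the 6, with 7.11% of their summed FPKM, to rank 4, with 11.9%, while MCM2 passed from rank 4 to last. Over all 6 the sum was 883.9 FPKM without and 669.7 FPKM with Dox, a log2 ratio of -0.40.

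In the replisome the median log2 ratio was -0.13 over 17 genes, 12 of them below 0. MCM10, FEN1 and the sum of GINS were lower with Dox. The clamp and the sum of its loader, though not each loader subunit, were close to level on FPKM as deposited. MCM10, which takes part in origin activation, had the lowest ratio of the group, from 45.75 FPKM without to 23.85 FPKM with Dox, a log2 ratio of -0.94. CDC45, which joins MCM2-7 and GINS, was at 58.33 and 65.10 FPKM, a log2 ratio of 0.16, but its listed length was more than 10% shorter with Dox and its share of the counts gave a log2 ratio of -0.03. All 4 GINS subunits were lower. GINS2 went from 32.26 to 18.29 FPKM (-0.82), GINS4 from 33.27 to 21.68 FPKM (-0.62) and GINS1 from 25.78 to 17.47 FPKM (-0.56). GINS3 was at 21.62 and 19.35 FPKM, a log2 ratio of -0.16. The sum of the 4 was 112.9 FPKM without and 76.8 FPKM with Dox, a log2 ratio of -0.56.

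PCNA, the sliding clamp, was nearly level at 187.98 FPKM without and 177.66 FPKM with Dox, a log2 ratio of -0.08. Replication factor C, which loads PCNA, was split among its subunits. RFC3 went from 35.01 to 21.89 FPKM, a log2 ratio of -0.68. RFC1, the large subunit, went from 41.84 to 51.94 FPKM, a log2 ratio of 0.31. RFC2 was at 43.00 and 39.30 FPKM (-0.13), RFC4 at 87.23 and 83.06 FPKM (-0.07) and RFC5 at 29.78 and 32.33 FPKM (0.12). The 5 summed to 236.9 FPKM without and 228.5 FPKM with Dox, a log2 ratio of -0.05 that was -0.26 with TMM factors and 0.045 with TPM.

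The single-strand binding complex RPA summed to 155.3 FPKM without and 176.4 FPKM with Dox, a log2 ratio of 0.18 that was -0.024 with TMM factors. RPA1, its largest subunit, was at 63.10 and 85.91 FPKM, a log2 ratio of 0.44 (counting interval 0.41 to 0.48). RPA3 was at 45.59 and 51.49 FPKM (0.18), with a listed length 9.0% longer with Dox and a log2 ratio of 0.34 on its share of counts. RPA2 was at 46.56 and 38.95 FPKM (-0.26). At the lagging strand, the flap endonuclease FEN1 went from 113.80 to 64.09 FPKM, a log2 ratio of -0.83, whereas DNA ligase I (LIG1) was at 39.72 and 36.24 FPKM (-0.13). The FPKM of FEN1 was 2.87 times that of LIG1 without Dox and 1.77 times with Dox.

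**Figure D4:**
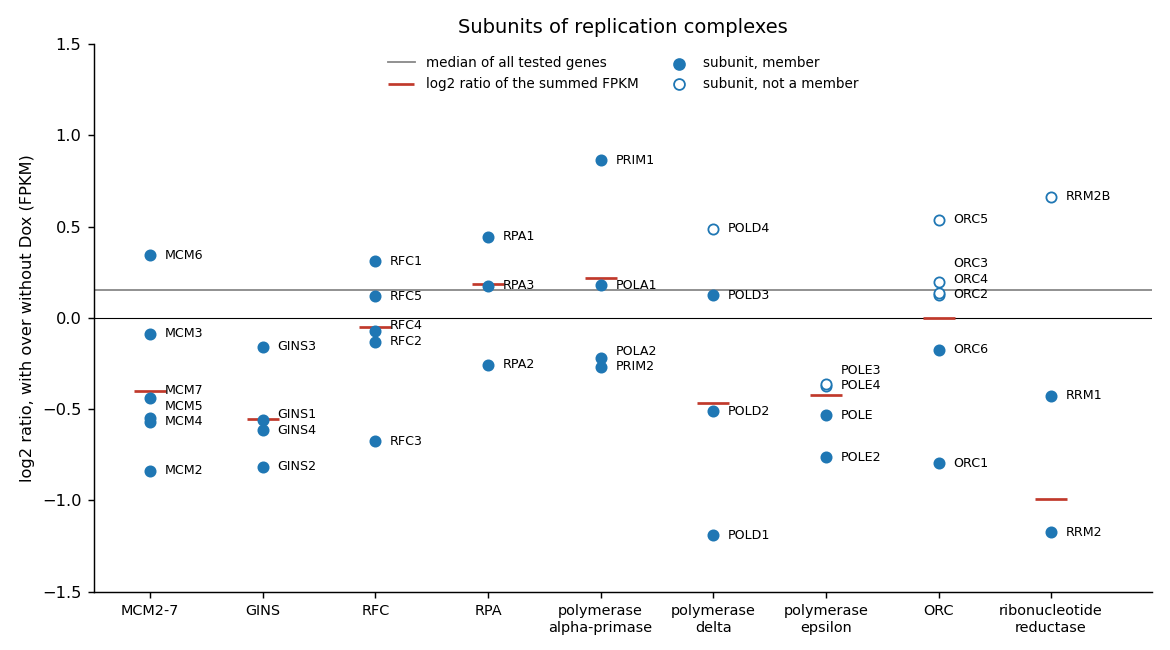
Log2 ratio of FPKM (with over without Dox) of each subunit of 9 replication complexes; filled points are members, open points are other subunits of the same complex, and red bars give the log2 ratio of the summed FPKM. All 4 GINS and all 4 polymerase epsilon subunits lie below 0, whereas MCM2-7, RFC, RPA, polymerase alpha-primase, polymerase delta, ORC and ribonucleotide reductase have subunits on both sides.

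The polymerase genes held both the lowest and the highest ratio of all members. POLD1, the catalytic subunit of polymerase delta, was listed with 6846 counts and 69.86 FPKM without Dox and with 3118 counts and 30.54 FPKM with Dox. Its log2 ratio was -1.19 (counting interval -1.25 to -1.13), a level lower by 56.2%, and 4.44% of all genes tested had a lower ratio. Its gene is on chromosome 19, forward strand, 50384204 to 50418016 (GRCh38). PRIM1, the catalytic subunit of primase, was listed with 1432 counts and 28.60 FPKM without Dox and with 2819 counts and 52.15 FPKM with Dox. Its log2 ratio was 0.86 (counting interval 0.77 to 0.96), a level higher by 82.1%, and its gene is on chromosome 12, reverse strand, 56731596 to 56752373. The median of the 9 polymerase genes was -0.27, with 6 of them below 0.

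Within polymerase delta, the accessory subunit POLD2 went from 135.20 to 94.78 FPKM, a log2 ratio of -0.51. POLD3 was at 18.23 and 19.88 FPKM, a log2 ratio of 0.12. The FPKM of POLD1 was 3.83 times that of POLD3 without Dox and 1.54 times with Dox. POLD4, which was not a member, was at 24.21 and 34.00 FPKM (0.49), so that POLD1 passed from the second to the third of the 4 subunits and its share of their sum from 28.2% to 17.0%. The subunits of this enzyme thus spanned 1.68 on the log2 scale, from POLD1 to POLD4.

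Polymerase epsilon, the leading-strand enzyme, differed in that its subunits were lower together. POLE, its catalytic subunit, went from 29.80 to 20.56 FPKM, a log2 ratio of -0.53, and POLE2 from 18.32 to 10.75 FPKM, a log2 ratio of -0.76 (counting interval -0.93 to -0.60, the widest of the members). POLE3 and POLE4, which were not members, had log2 ratios of -0.36 and -0.37. The 4 ratios spanned 0.40, and the summed FPKM gave -0.43.

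In polymerase alpha-primase, which starts each strand, the subunits diverged. POLA1, the catalytic polymerase subunit, was at 13.60 FPKM without and 15.40 FPKM with Dox, a log2 ratio of 0.18. POLA2 was at 48.80 and 41.95 FPKM (-0.22). PRIM2, the large primase subunit, was at 10.84 and 8.99 FPKM (-0.27), with a listed length more than 10% longer with Dox and a log2 ratio of -0.09 on its share of counts. PRIM1 took 28.1% of the summed FPKM of the 4 without Dox and 44.0% with Dox, and its FPKM was 2.64 times that of PRIM2 without and 5.80 times with Dox. The complex summed to 118.5 FPKM with and 101.8 FPKM without Dox, a log2 ratio of 0.22 that was 0.010 with TMM factors.

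Nucleotide supply held the largest loss in FPKM. RRM2, the small subunit of ribonucleotide reductase and the part of the enzyme that is produced in S phase, was listed with 44390 counts and 565.09 FPKM without Dox and with 22914 counts and 250.42 FPKM with Dox. Its log2 ratio was -1.17 (counting interval -1.20 to -1.15), a level lower by 55.7%. The listed length of RRM2 was 8.7% longer with Dox, and its share of counts gave a log2 ratio of -1.04. Its gene is on chromosome 2, forward strand, 10120698 to 10131419 (GRCh38). RRM1, the large subunit, was at 99.50 and 74.06 FPKM, a log2 ratio of -0.43, with a listed length more than 10% longer with Dox and a log2 ratio of -0.24 on its share of counts. The FPKM of RRM2 was 5.68 times that of RRM1 without Dox and 3.38 times with Dox. RRM2B, the small subunit that works outside S phase and was not a member, was at 8.77 and 13.95 FPKM (0.66), which was 0.016 and 0.056 times the FPKM of RRM2.

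The 2 routes to thymidylate differed. TYMS, thymidylate synthase of the de novo route, went from 210.72 FPKM without to 109.53 FPKM with Dox, a log2 ratio of -0.94 (counting interval -0.99 to -0.90). TK1, thymidine kinase of the salvage route, was at 86.49 and 93.75 FPKM, a log2 ratio of 0.12. The FPKM of TYMS was 2.44 times that of TK1 without Dox and 1.17 times with Dox. SLBP, which binds the stem-loop of replication-dependent histone mRNAs, was at 109.85 and 115.53 FPKM, a log2 ratio of 0.07. The median of the 5 supply genes was -0.43, and all 5 lay below the median of all genes.

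Some members share exon bases with other genes, and whether the counting used strand is not given in the sources used here. In the GENCODE release 29 annotation 18 members shared any exon base with another gene and 8 shared more than 10%. TYMS shared 46.6% with genes on the opposite strand, mainly ENOSF1, which was at 3.71 and 1.83 FPKM. RRM2 shared 20.2% with AC007240.1 on the same strand, which was at 19.1 and 36.87 FPKM, so reads could be divided between them. PRIM1, POLA2, MCM2, GINS3, GINS4 and RFC5 were the others past 10%. The effect of the shared bases on the values of these members was not tested.

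Other genes of replication and the cell cycle were taken from 8 lists of 99 genes, 98 of which passed the filter, the exception being CDKN2C. Their median log2 ratio together was -0.08, between that of the members and that of all genes, with 4 genes more than 2-fold lower (4.08%) and 2 higher (2.04%). From each list the genes named are those with the largest absolute ratio among genes with at least 5 FPKM. The medians of the 8 lists ran from -0.38 to 0.11, on both sides of 0. All 8 lay below the median of all genes, by 0.04 to 0.53. For protein-coding genes with at least 10 FPKM in 1 library the median was lower, at 0.02. The licensing and firing (0.11), E2F and RB (0.10) and checkpoint and repair (0.11) lists lay above that value, and the other lists below it.

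The other licensing and firing genes had a median log2 ratio of 0.11 (n = 14). RECQL4, a helicase needed for initiation, was at 19.34 and 8.75 FPKM (-1.14), whereas the origin-firing kinase CDC7 was at 11.68 and 19.00 FPKM (0.70). MTBP, a partner in origin firing, had a log2 ratio of 0.57 and ORC5 one of 0.54. The other fork genes had a median of -0.19 (n = 17), and the fork protection protein TIPIN was at 33.93 and 16.42 FPKM (-1.04). Topoisomerase I (TOP1) had a log2 ratio of -0.91, CHTF18 of the alternative clamp loader -0.82, and RNASEH2B, a subunit of ribonuclease H2, 0.61.

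The other nucleotide genes had the lowest median of the 8 lists, -0.38 (n = 11). DCTPP1, which removes surplus dCTP, was at 69.46 and 30.80 FPKM (-1.17). NME1, a nucleoside diphosphate kinase, had a log2 ratio of -0.97 and CTP synthase CTPS1 one of -0.84. TK2, the mitochondrial thymidine kinase, went the other way, at 5.26 and 16.51 FPKM (1.63). The chromatin assembly list had a median of -0.24 (n = 7), in which UHRF1, a cofactor of maintenance DNA methylation, had a log2 ratio of -0.99 and the histone chaperones ASF1A, ASF1B and NASP had 0.96, 0.32 and -0.29.

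Regulators of S phase entry were higher in some cases and lower in others. The E2F and RB list had a median log2 ratio of 0.10 (n = 15) with no member past 2-fold, and RB1, the E2F repressor, was at 12.34 and 22.10 FPKM (0.84). RBL1, its relative, had a log2 ratio of 0.79, the E2F partner TFDP1 -0.58 and E2F7 0.51. In the G1/S control list (median -0.07, n = 10), SKP2, a substrate receptor of the SCF ubiquitin ligase, had a log2 ratio of 0.73, cyclin E1 (CCNE1) -0.68, CDK2 -0.49 and MYC 0.49. The 1 gene of that list past 2-fold was CDKN1A, an inhibitor of cyclin-dependent kinases, at 1.08 and 2.95 FPKM (1.37); it is named here although it is below 5 FPKM. The checkpoint and repair list had a median of 0.11 (n = 12), with BRCA1 at 0.77, RAD17 at 0.56, RAD9A at -0.50 and ATRIP at -0.41.

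The mitotic list, markers of dividing cells, had a median log2 ratio of -0.17 (n = 12), 9 of them below 0. Cyclin B1 (CCNB1) was at 205.39 FPKM without and 96.82 FPKM with Dox (-1.08). CDC20 and the kinase AURKB had log2 ratios of -0.50 and -0.49, and CENPA, the centromeric histone, 0.49. The part that a different share of dividing cells has in the ratios of the DNA replication genes was not tested.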

How the data were processed

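RNA was measured in 2 libraries, 1 per condition, grouped by their title and treatment labels. The authors deposited for each of 57485 genes an expected count (not normalized), TPM (scaled by effective length to 1 fixed total), FPKM (per kilobase of effective length and library total) and an effective length in bases. The submitters' processing notes name Bowtie 0.12.2, HISAT2 2.1.0, StringTie 1.3.4d and hg19, without role or order, whereas 202888 of the 204675 listed transcripts matched GENCODE release 29 by versioned ID, so GRCh38 coordinates of that release are given for genes (56663 of 57485 matched). The strand setting of the counting is not given in the sources used here. The tables were compared as deposited.

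Log2 ratios were taken on FPKM plus 0.1, which understates the difference of low genes, over genes with at least 1 FPKM in 1 library. Exact 95% Clopper-Pearson intervals used the counts. At these depths 3 counts equal 0.0653 and 0.0616 CPM. Alternatives were pseudocounts of 0.01 and 1, no filter, TPM, CPM (counts scaled to the library total), and factors from edgeR 4.0.16 (TMM) and DESeq2 1.42.0 over 19934 genes with at least 10 counts, in R 4.3.3, on expected counts rounded to whole numbers. The study called genes with edgeR by fold and FDR, which needs replicates or an assumed dispersion and was not run. Python 3.11.15, pandas 2.3.3, numpy 2.4.6, scipy 1.17.1 and matplotlib 3.10.9 were used, and the ratio step was tested on simulated data. A further set of cell markers is not reported here. All 42 members are named, and of each other list up to 4 genes with the largest absolute ratio among those with at least 5 FPKM. The members, lists and roles were chosen with earlier results of these data known.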

Additional observations from a re-analysis of the deposited data

How the results depend on the processing

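No paired analysis was possible because each condition had 1 library, and for the same reason no library could be left out. With FPKM as deposited 2 members were more than 2-fold lower (4.76%, against 6.41% of all genes tested). FPKM over TMM factors gave 8 (19.0%, against 10.3%) and counts over DESeq2 size factors 10 (23.8%, against 10.1%). Subtraction of the median of all genes, an alternative chosen after seeing the data, gave 4, and the share of all genes was not computed for it. The medians of all, licensing, replisome, polymerase and supply members were -0.14, -0.33, -0.035, -0.17 and -0.33 with TPM, and -0.45, -0.63, -0.34, -0.47 and -0.63 with TMM factors. With counts over DESeq2 size factors, which also drops the gene length, they were -0.43, -0.70, -0.37 and -0.37 for the first 4 groups. Counts scaled to the library total gave -0.48 for licensing, -0.15 for polymerases and -0.24 for supply. The cause of these differences was not tested beyond the shift of the median of all genes, which was 0.10 with TPM and -0.20 with FPKM over TMM factors and with counts over size factors. No median of a role changed sign, and 0 members were more than 2-fold higher, under any setting tried. Pseudocounts and the filter left the count of lower members at 2, against 3.3% to 6.73% of all genes. Restricting to members with at least 5 FPKM changed nothing, since all 42 pass. The ratios of CDT1, MCM3, CDC45, PCNA, RFC4, RFC5, POLA1, POLD3, RPA3, TK1 and SLBP changed sign between settings. Summed levels of complexes with TPM and TMM factors were also taken after seeing the data, and with TMM factors RPA and ORC were below 0, at -0.024 and -0.21, and with TPM RFC was above 0, at 0.045.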
